A study of Mus musculus with 13 samples.

Results

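Organoids grown in full medium from single Troy-positive chief cells of the mouse stomach were compared with the freshly sorted cell type they were grown from. The comparison used the 3 arrays titled as organoids in EGFNWR medium and the 3 arrays titled as Troy-positive corpus chief cells, 6 of the 13 arrays of the study, and the groups were taken from the titles alone. Chief cells were sorted by flow cytometry from mice carrying an EGFP-ires-CreERT2 cassette in the Tnfrsf19 locus, so that the endogenous regulatory sequences of Troy drive the reporter. Each chief cell array held about 100000 sorted cells, taken from corpus glands of 10 mice that were pooled, freed with EDTA and trypsinized. The organoids descended from single sorted cells of this kind, and EGFNWR medium contained EGF, gastrin, FGF10, Noggin, Wnt3a and Rspondin. The other arrays held sorted Troy-positive parietal cells (2 arrays), whole corpus glands that were neither trypsinized nor sorted (2 arrays) and organoids in medium with EGF and Rspondin alone (ER, 3 arrays), and their values are given only beside those of a gene described here.

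Chief cells lie at the base of the corpus glands, where they store digestive proenzymes in large granules and release them on hormonal and nervous signals. Parietal cells of the same glands secrete acid through a potassium-dependent proton pump, mucous neck cells and surface pit cells secrete mucins and trefoil factors, and scattered enteroendocrine cells secrete hormones. After injury to the corpus, chief cells are known to lose their granules and to take on genes of a mucous metaplasia called SPEM, and stem cell cultures of the gut depend on Wnt and Rspondin signals.

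The groups differed in more than culture. The labels place the chief cells and the organoids in 2 separate experiments, only the chief cells were trypsinized and sorted shortly before lysis, and the labels give no age, no sex and no time in culture. Experiment, sort handling, culture and source animals therefore cannot be told apart in any difference between the groups. Whether the 3 organoid cultures trace to different mice is not stated, so the p-values measure the spread between these arrays, which may be technical. A protocol text speaks of intestine while the sample labels speak of gastric corpus. Levels of the intestinal regulators Cdx1 and Cdx2 did not exceed 5.26 on any of the 6 arrays, but other intestinal genes were high in organoids. Vil1 had 9.88 to 10.06 and Reg3g 9.12 to 9.75 on the EGFNWR arrays, and Lyz1 had 10.40 on EGFNWR array c. By the call defined below, 2 of 15 genes of an intestinal list were higher and 2 lower. The tissue of origin was not tested.

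Sex-linked genes also separated the groups, and the sex of the source animals cannot be told apart from the comparison. Eif2s3y, on chromosome Y, had log2 intensities of 8.42, 7.34 and 7.15 on the chief arrays a, b and c and of 3.67, 3.50 and 3.57 on the EGFNWR arrays. Xist, the RNA of the inactive X chromosome, had 8.40, 10.43 and 10.09 on the chief arrays and 11.05, 10.74 and 10.75 on the EGFNWR arrays. Of 15 measured genes of chromosome Y, 9 were lower in the organoids by the call defined below, against 1.53% of all genes. Some of the 9 (Sly, Srsy and several predicted genes) are multicopy genes whose probes may share sequence. These genes were looked at after their values were seen.

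All levels are log2 intensities, on which a difference of 1 is a 2-fold change. Array medians lay between 5.01 and 5.30 over the 13 arrays, and no detection call was used. A gene at or below the median of an array may be background there, and its difference then has no known size. The 3 EGFNWR arrays correlated with each other at 0.988 to 0.993 across all probesets of the array, and the 3 chief arrays at 0.950 to 0.961. Arrays of the 2 groups correlated with each other at 0.890 to 0.936, and genes are not independent replicates. Chief array c was closer to the sorted parietal arrays (0.979 and 0.982) than to chief arrays a (0.950) and b (0.961). Chief array a was closer to gland array a (0.978) than to chief arrays b (0.953) and c (0.950).

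The chief arrays also differed among themselves in the levels of marker genes of other cell types. Whether other cells were present in the sorted fractions was not tested. The mean level of 19 parietal cell markers was 10.35, 9.36 and 10.87 on chief arrays a, b and c, against 11.22 and 11.10 on the sorted parietal arrays, and the mean of 12 chief cell markers was 9.77, 9.70 and 9.47 on the same 3 chief arrays. The squamous keratin gene Krt5 was highest on chief array b, at 11.85, with 6.37 on array a, also above the median, and 4.25 on array c. Of the chief cell markers used to check the label, Pga5 had 10.47, 10.79 and 8.90 on the chief arrays against 9.78 and 9.27 in whole glands and 7.22 and 7.25 in parietal cells. Chia1 had 13.43, 13.38 and 13.23 on the chief arrays but also 13.08 and 13.02 on the parietal arrays. By Pga5, chief arrays a and b lay above both gland arrays and array c below both. By the mean of the 12 chief cell markers, all 3 chief arrays lay above the gland arrays, which had 9.41 and 8.84.

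A gene was called when its adjusted p from limma (Benjamini-Hochberg over 18820 genes) was under 0.05, its log2 difference was at least 2 in size, which is 4-fold, and the 3 arrays of each group did not overlap. By these criteria 775 genes (4.12%) were called. Of these, 487 (2.59%) were higher in the organoids and 288 (1.53%) were lower. Overlap alone is a weak criterion here, since 9052 genes (48.1%) had no overlap, and by adjusted p alone 3717 genes (19.8%) were higher and 1822 (9.68%) lower. The median difference over all genes was -0.07, with quartiles of -0.35 and 0.48.

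**Figure D1:**
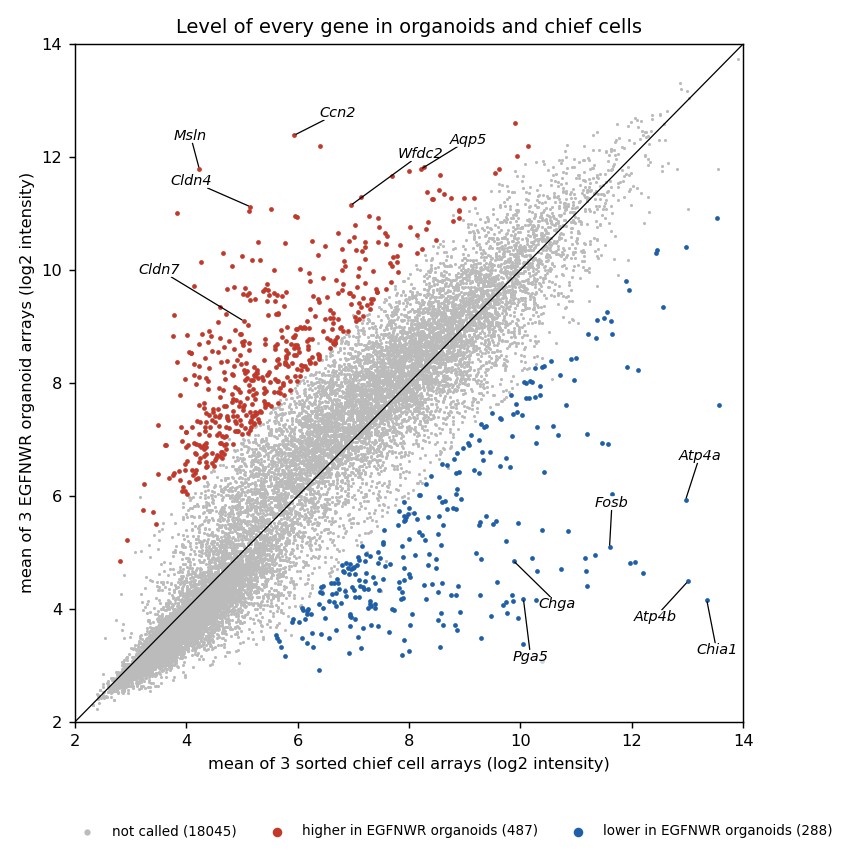
Mean log2 intensity of each of 18820 genes on the 3 sorted chief cell arrays (x axis) and on the 3 EGFNWR organoid arrays (y axis), with the 487 genes called higher in the organoids in red, the 288 called lower in blue and the line of equal level. Chia1 and Atp4b lie at the lower right, with a chief mean near the top of the scale and an organoid mean below 5, and Msln, Cldn4 and Ccn2 lie at the upper left.

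Many called genes lay at or below the array median in 1 of the 2 groups. Of the 487 higher genes, 483 were above the median of every EGFNWR array and 166 were at or below the median of every chief array. Of the 288 lower genes, 263 were above the median of every chief array and 147 were at or below the median of every EGFNWR array. The rule has a threshold at 4-fold: Fgf9 (2.00) and Dipk1b (2.003) lay just inside it and Egfr (1.997) and Zmat3 (1.997) just outside, and among the lower genes Mcrip2 (-2.003) lay just inside and Creg2 (-1.997) just outside.

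**Figure D2:**
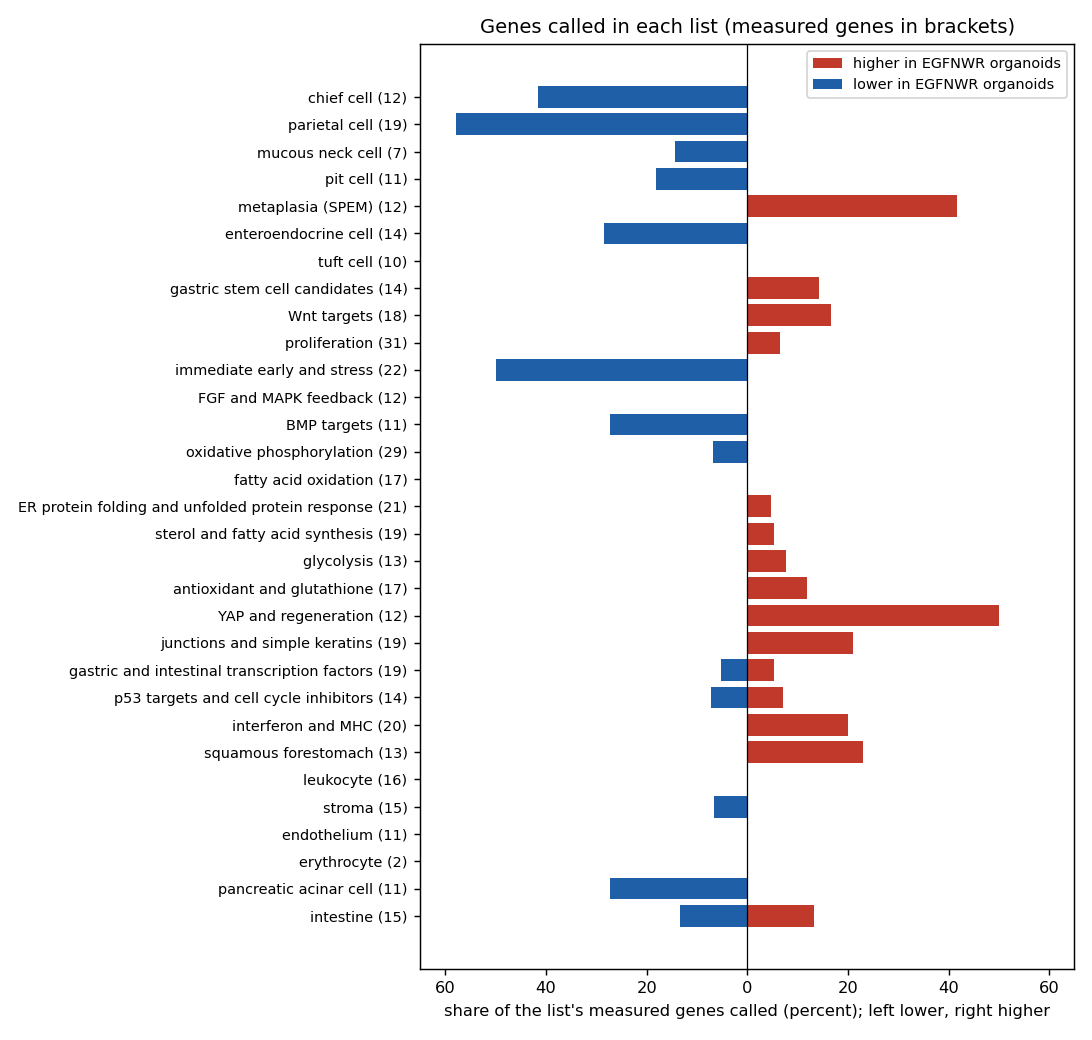
Share of the measured genes of each of 31 gene lists that were called higher (red, to the right) or lower (blue, to the left) in EGFNWR organoids than in sorted chief cells, in percent, with the number of measured genes in brackets. Parietal cell genes (11 of 19), immediate early genes (11 of 22) and chief cell genes (5 of 12) stand out to the left. YAP and regeneration genes (6 of 12) and metaplasia genes (5 of 12) stand out to the right. Of all genes 2.59% were called higher and 1.53% lower.

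Chief cell genes were lower in the organoids to very different degrees. Of 12 measured genes of the list, 5 were called lower and 0 higher, against 1.53% of all genes called lower, and the list's median difference was -1.95 against -0.07 over all genes. Chia1, an acidic chitinase, had log2 intensities of 13.43, 13.38 and 13.23 on the chief arrays and 4.02, 3.95 and 4.49 on the EGFNWR arrays. No chief array came near an organoid array, and the organoid values lay below the array medians (difference -9.19, SE 0.18, adjusted p from limma 2.44e-06).

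Pga5, a pepsinogen A gene, had 10.47, 10.79 and 8.90 on the chief arrays and 4.00, 4.35 and 4.16 on the EGFNWR arrays. It was lower on every organoid array (difference -5.88, SE 0.45, adjusted p from limma 0.000238), and the lowest chief array, c, was the one with the highest parietal markers. Cckar, the cholecystokinin receptor through which enzyme release is triggered, had 11.40, 11.58 and 10.50 against 5.04, 4.87 and 4.78, without overlap (difference -6.26, adjusted p 3.53e-05). Clps, which encodes colipase, a cofactor of pancreatic lipase, fell by 2.61 on the log2 scale but stayed bright, at 10.67 to 11.26 on the organoid arrays. Rnase1, a secreted ribonuclease, was also called lower (difference -4.44), yet its level was higher on the sorted parietal arrays (11.70 and 11.71) than on chief arrays a and b (10.38 and 7.90).

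Pgc, the second pepsinogen, behaved differently from Pga5. Its levels were 13.59, 13.62 and 13.46 on the chief arrays and 12.08, 11.74 and 11.55 on the EGFNWR arrays. The groups did not overlap, but the difference of -1.77 (SE 0.17, adjusted p from limma 0.000576) did not reach the 4-fold minimum. In ER medium Pgc was at 7.58, 10.12 and 7.54.

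Cblif, which encodes gastric intrinsic factor, a vitamin B12 carrier made by chief cells in the mouse, followed Pgc. It had 13.04, 13.23 and 12.74 on the chief arrays against 11.14, 10.80 and 11.32 on the EGFNWR arrays (difference -1.92, adjusted p 0.00073), and it was not called for the same reason. Bhlha15, or Mist1, a transcription factor of mature secretory cells, had 10.18, 10.26 and 8.80 against 8.03, 7.54 and 7.70 (difference -1.99, adjusted p 0.00854). EGFNWR organoids therefore held all 3 transcripts above their array medians, while Chia1, Pga5 and Cckar were below them. On chief arrays, values near 13 leave little room at the top of the scale, so the differences of Pgc and Cblif may be understated.

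**Figure D3:**
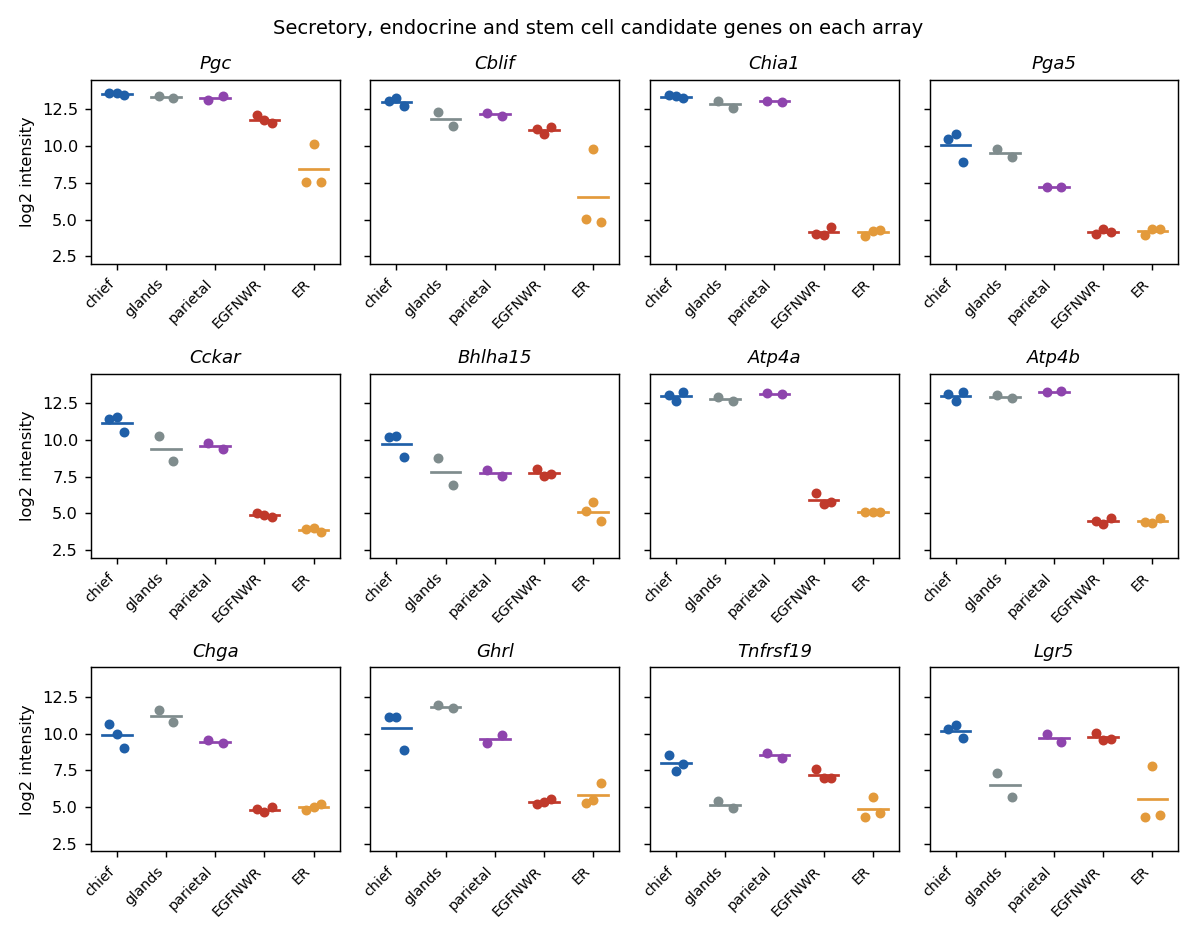
Log2 intensity on every array of 12 genes in sorted chief cells, whole glands, sorted parietal cells, EGFNWR organoids and ER organoids; each point is 1 array and each bar a group mean. Chia1, Pga5, Cckar, the proton pump genes and the hormone genes lie near 4 to 6 in the organoids, Pgc and Cblif stay above 10 in EGFNWR medium, and Lgr5 lies between 9.54 and 10.05 there.

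Several more of the 15 genes with the largest negative differences encode products of enzyme-secreting cells. Pdia2, a protein disulfide isomerase best known from the pancreas, had 12.28, 12.49 and 11.81 on the chief arrays and 4.56, 4.47 and 4.85 in the organoids (difference -7.57). Try10, a trypsinogen gene, had 10.93, 10.61 and 9.63 against 3.05, 3.25 and 2.91 (difference -7.32); trypsinogen genes are near-identical copies and their probes may share signal. Glp1r, the receptor of the incretin GLP-1, had 10.72, 11.04 and 9.09 against 3.94, 3.86 and 4.66 (difference -6.13). In none of these genes did a chief array approach an organoid array.

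Of 11 measured pancreatic acinar markers, 3 were called lower, against 1.53% of all genes. They were the lipase relative Pnliprp1 (difference -5.61), the amylase gene Amy1 (-3.06) and the elastase gene Cela1 (-2.13). The acinar genes Ctrb1, Cpa1 and Ptf1a had levels of at most 4.84 on all 6 arrays, below the array medians. Cela1 lost its call without EGFNWR array a (-1.86), without chief array b (-1.82) and with arrays centred on their median (-1.99), all for size.

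Parietal cell genes showed the highest share of lower calls of any list. Of 19 measured genes 11 were called lower and 0 higher, against 1.53% of all genes called lower, with a median difference of -2.26. Atp4a, the catalytic subunit of the proton pump, had 13.06, 12.62 and 13.22 on the chief arrays and 6.38, 5.66 and 5.75 on the EGFNWR arrays (difference -7.04, SE 0.25, adjusted p from limma 1.08e-05). Atp4b, its partner subunit, had 13.09, 12.65 and 13.28 against 4.50, 4.27 and 4.68 (difference -8.52, SE 0.20, adjusted p 3.43e-06). The chief values of both overlapped those of whole glands (12.61 to 13.04) and of sorted parietal cells (13.08 to 13.29).

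The potassium channel genes Kcnj16 (difference -6.67) and Kcne2 (-5.60), the nuclear receptor gene Esrrg (-6.51) and the creatine kinase gene Ckb (-5.60) were likewise lower without overlap. Each of these 4 was lower on chief array b than on the other chief arrays, as were the parietal markers as a whole. These differences compare organoids with sorted fractions that held parietal transcripts. How much of them belongs to chief cells was not tested, and in RNA from many cells fewer cells of a type and less RNA per cell cannot be told apart.

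Other genes of the parietal list were not called. Car2, a carbonic anhydrase, had 12.09, 11.51 and 12.19 on the chief arrays and 11.73, 11.77 and 11.98 in the organoids, and the groups overlapped (difference -0.10, adjusted p from limma 0.723). Slc9a4, a sodium/proton exchanger, had 11.72, 11.86 and 11.32 against 11.41, 11.57 and 11.44 (difference -0.16, adjusted p 0.509). The count of lower parietal genes was 15 without chief array b and 9 without chief array c.

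Among the largest decreases were also genes of lipid handling that parietal arrays expressed at least as strongly as chief arrays. Apoa1, an apolipoprotein of high-density lipoprotein, had 12.36, 10.97 and 12.59 on the chief arrays and 5.17, 4.50 and 4.75 in the organoids (difference -7.17). On the parietal arrays it had 12.70 and 12.78. Lpl, lipoprotein lipase, had 9.98, 8.86 and 11.02 against 3.58, 3.96 and 3.96 (difference -6.12), with 11.28 and 11.34 in parietal cells. Both genes had their lowest chief value on array b, where the parietal markers were lowest. Not all lipid carriers fell: Apob, the core protein of chylomicrons and low-density lipoprotein, had 6.38, 6.63 and 5.57 on the chief arrays against 8.11, 10.10 and 8.69 in the organoids and was called higher (difference 2.77, adjusted p from limma 0.00702). Of 11 apolipoprotein genes, a family looked at after its values were seen, 1 was higher and 2 were lower, against 2.59% and 1.53% of all genes.

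The amino acid transporter gene Slc7a8 (difference -6.80), the thyroid hormone carrier gene Ttr (-6.40) and Smim38, which encodes a small membrane protein (-7.22), completed the 15 largest decreases. Apoa4, a further apolipoprotein gene, was lower by its brighter probeset (difference -4.01), while its dimmer probeset differed by -1.07.

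Enteroendocrine hormone genes were at or near the array medians in the organoids. Of 14 measured genes of the list 4 were called lower and 0 higher, against 1.53% of all genes called lower. Chga, the granule protein chromogranin A, had 10.64, 9.99 and 9.00 on the chief arrays and 4.86, 4.68 and 5.00 on the EGFNWR arrays (difference -5.03, SE 0.38, adjusted p from limma 0.000213). Ghrl, which encodes the appetite hormone ghrelin, had 11.12, 11.15 and 8.88 against 5.24, 5.38 and 5.55 (difference -4.99). Sst, which encodes somatostatin, had 9.92, 9.52 and 9.80 against 5.37, 5.08 and 5.17 (difference -4.54).

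Gast, the gastrin gene, had 10.91, 7.66 and 9.06 on the chief arrays against 4.92, 4.98 and 5.08 (difference -4.22), a spread of more than 3 log2 units within the chief group. In whole glands Gast had 5.30 and 8.88, and its difference from glands of -2.10 was not called. Chga, Ghrl and Sst were higher in unsorted glands than on any chief array, at 10.81 to 12.22. Hormone transcripts were thus part of the glands the cells were sorted from, and the part of other cells in the sorted fractions was not tested.

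Few mucous cell genes were called against chief cells, and more pit cell genes were called against whole glands. Of 7 measured mucous neck cell genes 1 was called lower, and of 11 pit cell genes 2 were, Psca and Gkn2, against 1.53% of all genes. With glands as the reference, in a comparison that shares the organoid arrays, 6 of the 11 pit cell genes were lower, against 323 of all 18820 genes. They were Capn9 (-4.77), a stomach calpain, and Muc5ac (-4.58), the mucin of pit cells, beside Gkn1 (-4.51), Gkn2 (-4.05), Mucl3 (-3.37) and Psca (-2.51). Tff2, a trefoil factor of mucous neck cells, had 12.35, 12.83 and 12.15 on the chief arrays and 9.84, 9.48 and 11.56 in the organoids (difference -2.15, adjusted p from limma 0.0186). EGFNWR array c lay closer to the chief arrays than to the other organoid arrays. The call was lost without EGFNWR array a (-1.92), EGFNWR array b (-1.74) or chief array b (-1.96).

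Psca, a surface protein of pit cells, had 13.01, 12.80 and 13.11 against 9.80, 9.87 and 11.55 (difference -2.57, adjusted p 0.00551). Again EGFNWR array c was the highest of the organoid arrays. Gkn2, a secreted protein of pit cells, had 12.75, 10.80 and 11.39 against 8.94, 7.08 and 10.59 (difference -2.78, adjusted p 0.049). Its call was lost without EGFNWR array a (-2.81), EGFNWR array b (-1.88), chief array a (-2.23) or chief array c (-2.91), and under repeated quantile normalization (-2.92), median centring (-2.64), array weights (-2.96) and a test over every probeset. In ER organoids all 3 genes were close to the chief level, with Tff2 at 12.16, 12.36 and 12.33. Muc6, the mucin of neck cells, had 12.81, 13.18 and 12.42 in chief cells and 12.17, 11.67 and 11.53 in EGFNWR organoids, a difference of -1.01 that was not called.

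Tnfrsf19, the gene that defines the sorted cells, was not called. It had 8.53, 7.43 and 7.96 on the chief arrays and 7.63, 6.96 and 7.01 on the EGFNWR arrays, and the groups overlapped (difference -0.77, SE 0.31, adjusted p from limma 0.100). Both groups lay above whole glands (5.40 and 4.92) and above ER organoids (4.37, 5.68 and 4.63). Because the reporter sits in this locus and the chief cells were sorted on it, a high level in them follows from the sort.

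Lgr5, a receptor of Rspondin and a Wnt target gene of stem cells, was not called either. It had 10.32, 10.58 and 9.71 in chief cells and 10.05, 9.54 and 9.66 in EGFNWR organoids (difference -0.45, SE 0.25, adjusted p 0.211). Whole glands had 7.31 and 5.73 and ER organoids 4.33, 7.80 and 4.50. Axin2, a feedback inhibitor of the pathway, had 6.98, 7.10 and 6.20 against 7.30, 7.10 and 6.47, with overlap (difference 0.20). A p that misses the threshold does not show equal levels, and the 3 genes differed by less than 1 log2 unit.

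Of 18 measured Wnt targets 3 were called higher and 0 lower, against 2.59% of all genes called higher, and the list's median difference was -0.17. Ascl2, a transcription factor of intestinal stem cells, had 5.57, 5.78 and 5.12 on the chief arrays and 8.30, 8.23 and 8.04 on the EGFNWR arrays (difference 2.70, SE 0.20, adjusted p from limma 0.000197). In ER organoids it was back at 4.79, 6.22 and 4.36. Ccnd1, cyclin D1, had 9.63, 10.12 and 9.07 against 11.81, 12.00 and 11.56 (difference 2.18), and its call was lost without chief array c (1.92), where 1 of the 18 genes was called. Against whole glands, in a comparison that shares the organoid arrays, 7 of the 18 genes were higher, against 404 of all 18820 genes. Among the 7 were Lgr5 (3.23), Tnfrsf19 (2.04), Axin2 (2.18) and Myc (2.13).

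Of 14 gastric stem cell candidates 2 were called higher, Ascl2 and Aqp5, and 0 lower, against 2.59% of all genes called higher. Smoc2, a matricellular protein of gut stem cells (difference -1.65, adjusted p 0.00497), and Lrig1, an inhibitor of EGF receptors (-1.33, adjusted p 0.00363), passed the test below the 4-fold minimum.

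Metaplasia genes were called in 1 direction, higher in the organoids. Of 12 measured genes of the SPEM list 5 were called higher and 0 lower, against 2.59% of all genes called higher. The list's median difference was 1.84. Wfdc2, a secreted protease inhibitor also known as HE4, had 7.57, 6.94 and 6.36 on the chief arrays and 11.06, 11.24 and 11.14 on the EGFNWR arrays. The highest chief array lay more than 3 log2 units below the lowest organoid array (difference 4.19, SE 0.29, adjusted p from limma 0.000151).

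Cldn7, a claudin of tight junctions and lateral membranes, had 5.07, 4.82 and 5.19 on the chief arrays, none above its array median, and 8.95, 9.11 and 9.23 in the organoids (difference 4.07, SE 0.16, adjusted p 1.59e-05). Aqp5, a water channel, had 8.92, 8.42 and 7.31 against 12.10, 11.68 and 11.58 (difference 3.57). Cftr, a chloride channel, had 6.12, 6.19 and 5.47 against 8.91, 8.81 and 8.14 (difference 2.69). All 4 genes were called, so their groups do not overlap by the definition of a call.

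Cd44, a hyaluronan receptor that is also in the Wnt list, had 7.74, 9.25 and 7.68 against 10.57, 10.39 and 10.17 (difference 2.15, adjusted p from limma 0.00783). Its call was lost without chief array a (1.91) or chief array c (1.88). Wfdc2, Cldn7 and Aqp5 were also high in ER organoids, whereas Cftr was at 5.20, 6.61 and 3.99 there. The other members included Sox9 (difference 0.27) and Olfm4 (-2.23, adjusted p 0.150), which varied from 3.58 to 7.40 among the EGFNWR arrays.

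**Figure D4:**
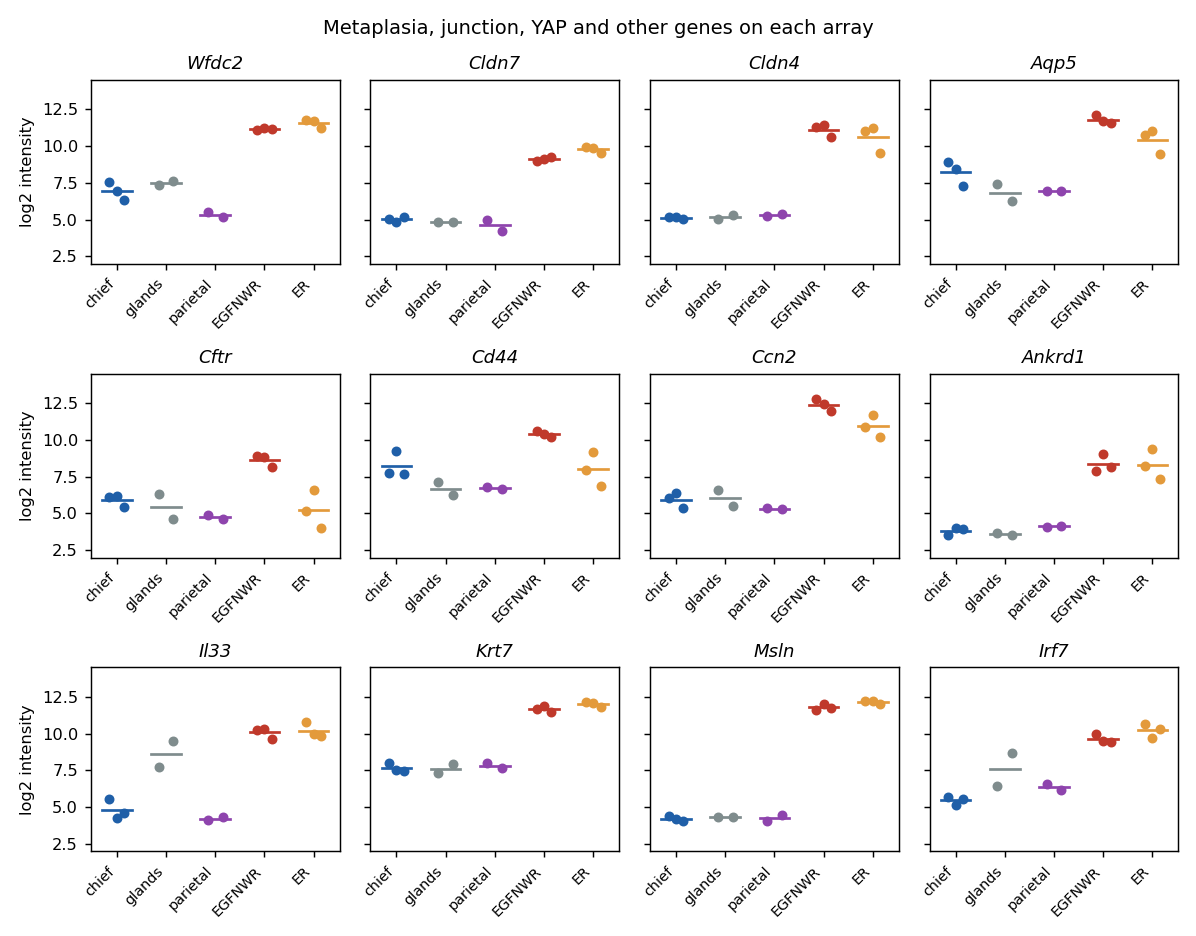
Log2 intensity on every array of 12 genes in sorted chief cells, whole glands, sorted parietal cells, EGFNWR organoids and ER organoids; each point is 1 array and each bar a group mean. All 12 are genes called higher, so their EGFNWR and chief arrays do not overlap by the definition of a call. Il33 and Irf7 are also raised in whole glands, above chief cells.

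Some junction and keratin genes were called higher. Of 19 measured genes 4 were called higher and 0 lower, against 2.59% of all genes called higher, with a median of 0.62. The claudin family went both ways: over all 23 measured claudin genes, counted after their values were seen, 3 were higher and 1 lower, with a median of -0.14. The lower one was Cldn8, with 8.26, 8.09 and 7.38 on the chief arrays and 4.29, 4.58 and 5.29 in the organoids (difference -3.19, adjusted p from limma 0.000649). Cldn4, another claudin, had 5.19, 5.17 and 5.07 on the chief arrays, at or below the array medians, and 11.30, 11.43 and 10.63 in the organoids (difference 5.98, SE 0.22, adjusted p from limma 1.32e-05). Cldn2, a claudin that forms cation pores, had 4.64, 5.00 and 5.73 against 8.85, 8.66 and 8.22 (difference 3.45), and in ER medium 5.07, 7.11 and 3.84.

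Krt19, a keratin of simple epithelia, had 10.84, 9.31 and 10.27 against 12.04, 12.33 and 12.19 (difference 2.05). Its call was lost without EGFNWR array b (1.98) or chief array b (1.63) and under repeated quantile normalization (1.96), and whole glands had 11.40 and 12.39. E-cadherin, encoded by Cdh1, had 11.46, 11.57 and 11.13 against 11.23, 11.48 and 11.31, with overlap, as a general epithelial marker present in both groups.

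Genes of the YAP and regeneration list had the highest share of higher calls. YAP is a coactivator that acts through TEAD transcription factors when cells are stretched or injured. Of 12 measured genes 6 were called higher and 0 lower, against 2.59% of all genes called higher. The list's median difference was 2.07, and the same 6 genes were called without each array in turn. Against whole glands the count was also 6, but 5 of the genes were shared, with Ccn1 called in place of Il33. By that reference 404 of all 18820 genes were higher.

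Ccn2, a matricellular growth factor and classic YAP target, had 6.04, 6.42 and 5.36 on the chief arrays and 12.78, 12.42 and 11.96 on the EGFNWR arrays (difference 6.45, SE 0.31, adjusted p from limma 4.73e-05). No chief array came within 5 log2 units of an organoid array. Ankrd1, a nuclear ankyrin repeat protein, had 3.57, 3.98 and 3.93 against 7.87, 9.07 and 8.15 (difference 4.54, SE 0.31, adjusted p 0.000149), from below the median of every chief array. Ccn1, a relative of Ccn2, had 10.02, 10.68 and 7.87 in chief cells and 9.62, 9.52 and 9.18 in organoids, a difference of -0.08 with overlap.

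Il33, an alarmin cytokine, had 5.59, 4.26 and 4.60 against 10.27, 10.32 and 9.64 (difference 5.26). Whole glands also had 7.71 and 9.49, and its difference from glands of 1.48 was not called. Krt7, a keratin of ducts, had 8.02, 7.56 and 7.49 against 11.69, 11.85 and 11.45 (difference 3.97), with glands at 7.32 and 7.93. The remaining called members were Anxa1 (3.86), an annexin of membrane repair, and Ajuba (2.72), a LIM protein that binds the kinases upstream of YAP.

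Promoters of the called members were searched for the core TEAD motif, CATTCC on either strand, in the 250 bases before each start. RefSeq promoter windows (GRCm38.p6) were matched for 5 of the 6 called genes, all but Ccn2. Of these 5 genes, 4 held the motif in at least 1 window, against 12.6% of 32851 promoters counted singly. Il33 had 2 windows, both with the motif. Members of the list that were not called were not searched. The window of Ankrd1, the called gene of this list with the lowest level in chief cells, is shown with its 2 matches in capitals; it lies at chr19:36119845-36120094 on the minus strand and is written 5′ to 3′.

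Ankrd1: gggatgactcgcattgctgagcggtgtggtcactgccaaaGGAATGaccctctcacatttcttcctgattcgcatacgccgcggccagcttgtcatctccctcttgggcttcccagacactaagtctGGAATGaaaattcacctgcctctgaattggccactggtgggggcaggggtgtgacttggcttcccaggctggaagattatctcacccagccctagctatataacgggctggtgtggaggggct

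Both matches are in the form GGAATG, the reverse complement of the motif, at 210 and 123 bases before the start. A match is a description of these letters and no evidence of binding. The windows of Il33, Anxa1 and Ajuba also held the motif, and that of Krt7 did not.

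Immediate early genes showed the opposite pattern to the metaplasia genes, and the counts depended on the reference. These genes are induced within minutes by stress and dissociation. Of 22 measured genes 11 were called lower in the organoids and 0 higher, against 1.53% of all genes called lower. The list's median difference was -2.07. Fosb, an AP-1 subunit, had 11.86, 12.10 and 10.84 on the chief arrays and 4.91, 5.00 and 5.37 on the EGFNWR arrays (difference -6.51, SE 0.33, adjusted p from limma 5.48e-05). Whole glands, which were not trypsinized or sorted, had 7.43 and 5.39.

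Atf3, a stress-induced transcription factor, had 12.00, 12.21 and 11.55 on the chief arrays and 7.93, 8.23 and 8.69 in the organoids (difference -3.64, SE 0.25, adjusted p 0.000151). In whole glands it had 6.78 and 6.78, so that the organoids lay above the glands by 1.50. Nr4a2, an orphan nuclear receptor, had 10.73, 11.22 and 10.48 against 7.74, 7.75 and 7.33 (difference -3.20). Fos, a further AP-1 subunit, had 11.40, 11.36 and 10.13 against 7.76, 8.17 and 8.24 (difference -2.91), with glands at 7.86 and 8.77.

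With whole glands in place of chief cells, 1 of the 22 genes was lower, Nr4a2 (-2.15). The genes Ccn1 (3.32) and Gadd45b (2.79), a stress-induced growth arrest gene, were the 2 higher ones. By that reference 323 of all 18820 genes were lower and 404 higher. Sorted parietal cells had intermediate levels, for example 10.83 and 10.74 of Atf3. The count of lower genes was 8, 7 and 12 without chief arrays a, b and c. Sort handling moved with these differences, and its part in them cannot be told apart from that of culture in the comparison with chief cells.

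**Figure D5:**
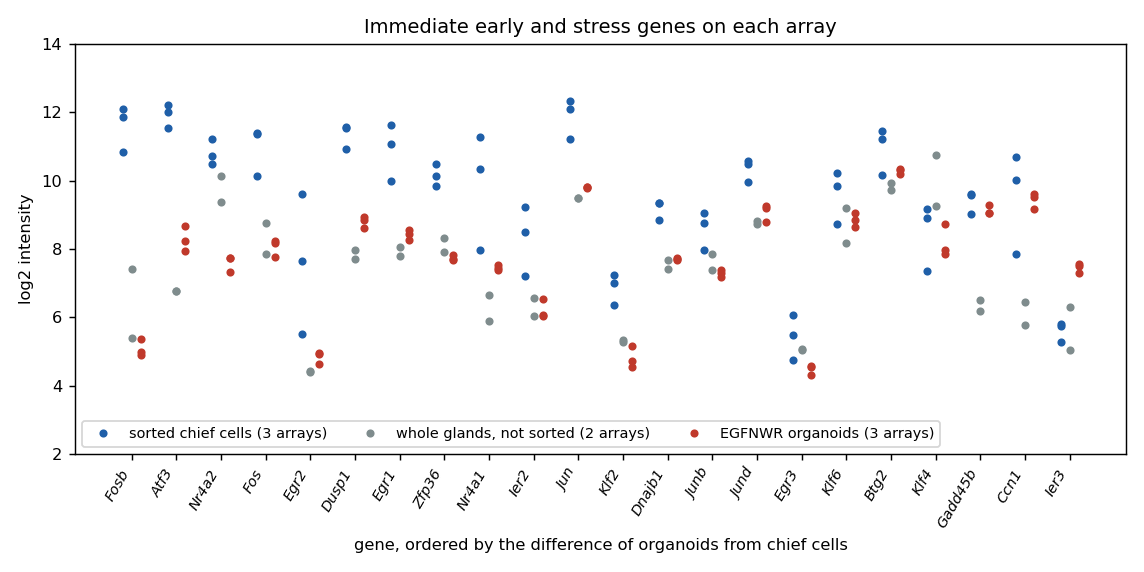
Log2 intensity of the 22 measured immediate early and stress genes on the 3 sorted chief cell arrays (blue), the 2 unsorted whole gland arrays (grey) and the 3 EGFNWR organoid arrays (red), ordered from the largest decrease to the largest increase in organoids. For Fosb, Atf3, Fos, Dusp1, Egr1 and Jun, every chief array lies above every gland and organoid array.

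BMP targets were called in 1 direction, lower in the organoids, whose medium contained the BMP inhibitor Noggin. Of 11 measured genes 3 were called lower and 0 higher, against 1.53% of all genes called lower. Id3, an inhibitor of basic helix-loop-helix factors, had 8.05, 7.15 and 8.55 on the chief arrays and 4.31, 4.47 and 4.77 in the organoids, where it was below the array medians (difference -3.40, SE 0.34, adjusted p from limma 0.000647). Smad9, a BMP-specific signal transducer, had 6.97, 5.43 and 7.95 against 4.03, 4.22 and 4.08 (difference -2.67).

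Id4, a relative of Id3, had 6.55, 6.92 and 5.23 against 3.93, 3.93 and 3.84 (difference -2.33), and its call was lost without chief array b (-1.99). Id3 was as low in ER organoids (4.77, 4.75 and 4.96), whose medium held no Noggin. Both Id3 and Smad9 were lowest on chief array b, as were the parietal markers. Sorted parietal cells had 8.79 and 8.48 of Id3 and 8.77 and 8.16 of Smad9. Id4 was instead highest on chief array b, with 4.86 and 4.34 in parietal cells. The cause of these differences and the part of parietal RNA in them were not tested. Id1 (difference -0.98) and Id2 (0.25) were not called.

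No gene of the FGF and MAPK feedback list was called among 12 measured, although 5 were higher by limma's adjusted p alone, 6 at an unadjusted p under 0.05, and the list's median was 0.73. The 2 brightest members were Phlda1, a pleckstrin-homology protein induced by growth factors (difference 0.66), and Dusp6, a phosphatase of ERK (-0.31), and both overlapped between the groups. Of all genes 19.8% were higher by limma's adjusted p alone, and 4692 of 18820 at an unadjusted p under 0.05. The tuft cell list also had no call among 10 genes, with 3 higher by limma's adjusted p alone and 3 at an unadjusted p under 0.05. Its brightest member Avil, an actin-binding protein, differed by 1.98, just under the minimum. Avil was called without EGFNWR array a (2.01), without chief array a (2.39) and after median centring (2.12).

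Of 31 measured proliferation genes 2 were called higher and 0 lower, against 2.59% of all genes called higher, with a median of 1.32. By adjusted p alone 17 of the 31 were higher, against 19.8% of all genes. Cdt1, a licensing factor of DNA replication, had 6.13, 5.92 and 5.14 on the chief arrays and 7.79, 7.89 and 8.18 in the organoids (difference 2.22). Mcm7, a subunit of the replicative helicase, had 7.78, 7.87 and 6.60 against 9.65, 9.58 and 9.58 (difference 2.19).

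Both calls were lost without chief array c, at 1.93 for Cdt1 and 1.78 for Mcm7, and against whole glands, where 0 of the 31 genes were called. The count was 4 without chief array b. Mki67, the common proliferation marker, had 8.84, 9.96 and 7.49 on the chief arrays and 8.90, 8.69 and 9.13 in the organoids, a difference of 0.14 with overlap. The chief arrays spread over more than 2 log2 units in it, and whole glands had 9.33 and 9.49.

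Among p53 targets and cell cycle inhibitors, 1 of 14 was called higher and 1 lower, against 2.59% and 1.53% of all genes. The count of higher genes depended on the arrays, at 3 without chief array a, b or c and 4 without EGFNWR array c. It was 5 against whole glands, where 404 of all 18820 genes were higher, and Phlda3 was among them each time. Phlda3, an AKT repressor induced by p53, had 5.11, 6.55 and 5.08 against 10.05, 10.28 and 9.65 (difference 4.41, adjusted p from limma 0.000443). Cdkn1c, the cyclin-dependent kinase inhibitor p57, had 8.77, 8.29 and 7.82 against 4.93, 5.30 and 5.43 (difference -3.07, adjusted p 0.000335). By adjusted p alone 8 of the 14 were higher, against 19.8% of all genes. Among the 8 were Cdkn1a (1.91), the inhibitor p21, and Cdkn2a (1.98), which encodes p16 and p19ARF.

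Metabolic lists had few calls, where 2.59% of all genes were called higher and 1.53% lower. Of 29 oxidative phosphorylation subunits 2 were called lower, Ndufa4 (difference -2.37) and Ndufa1 (-2.16), both small accessory subunits of the respiratory chain, and 14 were lower by limma's adjusted p alone, against 9.68% of all genes. Ndufa4 had 10.11, 9.32 and 10.88 on the chief arrays against 7.59, 7.74 and 7.86 in the organoids, and parietal cells had 11.17 and 11.13. Both calls were lost without chief array c, at -1.99 for Ndufa4 and -1.90 for Ndufa1. The list's mean level followed the parietal markers among the chief arrays, at 10.90, 10.03 and 11.23, and the part of parietal RNA in these differences was not tested.

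Of 17 fatty acid oxidation genes 0 were called in either direction, and by limma's adjusted p alone 7 were lower and 0 higher. At an unadjusted p under 0.05 these counts were 8 and 0. Of all genes 9.68% were lower and 19.8% higher by adjusted p alone. Hadh, a hydroxyacyl-CoA dehydrogenase, differed by -0.93 and Etfb, an electron transfer flavoprotein subunit, by -0.18. Genes of glycolysis had 1 call of 13, Slc16a3, a lactate exporter, with 5.61, 5.44 and 5.85 against 8.81, 7.82 and 9.42 (difference 3.05). Sterol and fatty acid synthesis had 1 call of 19, Scd1, a fatty acid desaturase, with 7.76, 7.69 and 6.18 against 10.32, 10.42 and 10.74 (difference 3.28). By adjusted p alone 11 of the 19 were higher, against 19.8% of all genes.

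Antioxidant genes had 2 calls of 17, both higher, against 2.59% of all genes called higher. Slc7a11, the cystine importer that feeds glutathione synthesis, had 4.11, 4.49 and 3.89 against 7.68, 7.97 and 8.27 (difference 3.81, adjusted p from limma 8.07e-05). Gsta3, a glutathione transferase, had 6.68, 5.44 and 5.85 against 8.84, 9.08 and 8.95 (difference 2.97), but whole glands had 8.53 and 9.63 and the difference from them was -0.12. Of 21 genes of protein folding in the endoplasmic reticulum 1 was called, Ero1a, an oxidase of disulfide formation (difference 2.51), with 10.39 to 11.44 in the organoids and 10.62 on 1 gland array. The list as a whole stayed near the chief level (median 0.32), with the main chaperone Hspa5 at a difference of 0.25.

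Interferon-response and antigen presentation genes were higher in 4 of 20 and lower in 0, against 2.59% of all genes called higher. Irf7, a transcription factor of the interferon response, had 5.69, 5.15 and 5.58 on the chief arrays and 9.99, 9.50 and 9.42 in the organoids (difference 4.16, SE 0.22, adjusted p from limma 5.96e-05). Oasl2, an oligoadenylate synthetase relative, had 6.69, 6.46 and 7.21 against 10.31, 9.87 and 9.80 (difference 3.21). Tap1, a peptide transporter for antigen presentation, had 5.75, 5.93 and 5.69 against 8.59, 8.53 and 8.30 (difference 2.68).

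Ifit1, an interferon-induced RNA-binding protein, had 4.26, 4.47 and 4.31 against 7.40, 6.74 and 6.44 (difference 2.51), from below the median of every chief array. The 2 gland arrays differed widely in these genes, for example 6.44 and 8.69 of Irf7 and 5.50 and 7.94 of Ifit1. With glands as the reference only Irf7 was called among the 20 (2.07), where 404 of all 18820 genes were higher.

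The promoters of the 4 called genes were searched for an interferon-stimulated response element of the form GAAANNGAA on either strand, in the 250 bases before the start. It was found in 1 of the 4, Ifit1, and in 7.13% of all promoters. The Ifit1 window (RefSeq, GRCm38.p6, chr19:34640639-34640888, plus strand) is shown because it holds 3 matches, of which 2 overlap; the matches are in capitals and read TTCNNTTTC, the reverse complement.

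Ifit1: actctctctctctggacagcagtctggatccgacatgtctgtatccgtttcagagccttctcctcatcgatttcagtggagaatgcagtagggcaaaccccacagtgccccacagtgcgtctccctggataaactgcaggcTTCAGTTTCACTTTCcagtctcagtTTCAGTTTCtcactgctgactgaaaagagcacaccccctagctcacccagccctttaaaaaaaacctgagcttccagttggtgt

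The matches begin 109, 103 and 84 bases before the start. The windows of Irf7, Oasl2 and Tap1 held no match, which says only that these letters are not in the 250 bases searched. For the 11 called immediate early genes the cyclic AMP response element TGACGTCA was found in 1 of 9 matched promoters, that of Dusp1, a phosphatase of MAP kinases, against 1.55% of all promoters.

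Markers of squamous epithelium were called higher in 3 of 13, all cornified envelope or suprabasal genes, and lower in 0. Of all genes 2.59% were called higher. The list's median difference was -0.88, so the 3 do not stand for the list as a whole. The chief arrays differed in this list, with mean levels of 4.78, 7.15 and 4.68 on arrays a, b and c. On the EGFNWR arrays the list's mean was 5.18, 5.49 and 5.63, above chief arrays a and c and below b. Sprr1a, a small proline-rich protein, had 8.13, 7.03 and 8.82 on the chief arrays and 11.27, 11.88 and 12.08 in the organoids (difference 3.75, adjusted p from limma 0.00128). Ivl, which encodes involucrin, had 3.60, 4.42 and 3.96 against 6.42, 7.21 and 7.76 (difference 3.14). Krt4 had 4.12, 6.95 and 3.82 against 7.53, 8.57 and 9.39 (difference 3.53, adjusted p 0.0189).

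Krt4 lost its call without EGFNWR array b (3.50), EGFNWR array c (3.09) or chief array a (3.11). The basal squamous genes Krt5 and Krt14 were at 4.18 to 5.26 on the EGFNWR arrays, at or near the array medians. Both had their highest level on chief array b, with Krt14 at 10.04 there. Krt5 differed by -3.18 with overlap and was not called (adjusted p from limma 0.188).

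Transcription factors of gastric and intestinal identity had 1 call in each direction among 19, against 2.59% of all genes called higher and 1.53% lower. Onecut2, a homeodomain factor, had 4.52, 4.77 and 4.68 against 8.25, 7.74 and 7.63 (difference 3.22, adjusted p from limma 9.56e-05). Esrrg, described above with the parietal genes, was the lower one, with 11.24, 10.57 and 11.70 on the chief arrays against 4.17, 4.12 and 5.69. The stomach factor Sox2 (difference 1.12, adjusted p 0.185) and the foregut factor Gata4 (-1.14, adjusted p 0.00172) stayed well above the array medians in both groups.

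Of 15 intestinal genes 2 were called higher and 2 lower, against 2.59% and 1.53% of all genes. Vil1, the microvillus protein villin, had 7.02, 6.00 and 5.58 against 9.88, 10.06 and 9.88 (difference 3.74). Reg3g, an antibacterial lectin, had 5.77, 4.94 and 4.74 against 9.55, 9.12 and 9.75 (difference 4.32). The lower ones were the apolipoprotein genes Apoa1 and Apoa4, described above. Goblet and enterocyte markers such as Muc2 (4.49 to 5.92) and the regulators Cdx1 and Cdx2 remained near the array medians in the organoids.

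The remaining genes among the 15 largest increases belong to several functions. Msln, the surface protein mesothelin, had the largest increase, from 4.43, 4.19 and 4.07 to 11.57, 12.03 and 11.77 (difference 7.56, SE 0.18, adjusted p from limma 3.43e-06). It was at or below the median on every chief, parietal and gland array and at 11.99 to 12.23 in ER organoids. Chil4, a chitinase-like protein, rose from 3.35, 3.75 and 4.38 to 10.93, 11.16 and 10.92 (difference 7.18), although 1 gland array had 9.97 and the other 4.87.

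Iron handling was represented by Cybrd1, a ferric reductase (difference 5.93), and Trf, which encodes transferrin (5.81). Trf had 12.34, 12.15 and 12.11 in EGFNWR organoids and 8.94, 11.23 and 8.49 in ER organoids. Of enzymes and membrane-binding proteins, Vnn1, a pantetheinase (5.89), Tgm2, a transglutaminase (5.21), and Anxa3, an annexin (5.56), were among the largest. Anxa3 was also high in whole glands (8.20 and 10.18), and its difference from them of 1.88 was not called.

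Sftpd, surfactant protein D, had 3.89, 3.70 and 3.72 on the chief arrays and 9.14, 9.33 and 9.11 in the organoids (difference 5.42, adjusted p from limma 4.58e-06). Serpinb6b, a serine protease inhibitor (5.59), Tnip3, an inhibitor of NF-kappa B signalling (5.07), Ttc9, a tetratricopeptide protein (5.26), and the predicted gene Gm11545 (5.64) completed the 15. None of these 5 was above 5.39 on any chief, parietal or gland array.

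Most markers of cells other than epithelium were at or below the array medians in both groups. This held on all 6 arrays for 12 of 16 leukocyte genes, 8 of 11 endothelial genes, 8 of 15 stromal genes and both erythrocyte genes, while Lcp1, Egfl7 and Esam were above the median on every array. Of 16 leukocyte genes 0 were called in either direction, of 11 endothelial genes 0, of 2 erythrocyte genes 0 and of 15 stromal genes 1. Of all genes 19.8% were higher and 9.68% lower by limma's adjusted p alone. By the same criterion 2 leukocyte genes were higher and 2 lower, and 1 endothelial gene was lower. At an unadjusted p under 0.05 these counts were 2, 3 and 1, and 0 for the erythrocyte genes. Of their defining genes, Ptprc did not exceed 4.50 and Pecam1 4.47 on any of the 6 arrays, both below the array medians, and the stromal collagen gene Col1a1 reached at most 5.82.

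The brightest leukocyte list member was Lcp1, an actin-bundling protein, with 10.32, 10.11 and 10.07 on the chief arrays against 9.16, 9.55 and 9.72 in the organoids (difference -0.69). Igkc, an immunoglobulin light chain, had 4.50, 6.94 and 6.96 on the chief arrays against 4.64 to 4.91 in the organoids (-1.36). Igkc was called without chief array a (-2.17). Dcn, the stromal proteoglycan decorin, was the 1 stromal call, with 6.22, 8.47 and 4.58 against 3.62, 3.32 and 3.71 (difference -2.87, adjusted p from limma 0.0397). This call was lost under repeated quantile normalization (-2.74), in a test over every probeset and without each of 5 arrays in turn, at -2.91, -2.76 and -2.95 without EGFNWR a, b and c and at -2.98 and -1.85 without chief a and b. Esam, an endothelial adhesion molecule, had 7.80, 6.15 and 7.96 against 7.11, 7.36 and 7.44. Esam (difference 0.00) and the endothelial gene Egfl7 (0.24) and the erythrocyte genes Slc4a1 (-0.08) and Alas2 (-0.22) were not called; Egfl7 was the only 1 of the 4 without overlap.

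Whole glands offer a second reference from the first experiment without the sort. Of the 82 named genes that were called against chief cells, 63 were called against glands, with the same direction. The comparisons share the EGFNWR arrays and are not independent. Over all 18820 genes, 404 were called higher and 323 lower against glands. The calls lost against glands included Fosb (-1.32), Fos (-0.26), Il33 (1.48), Oasl2 (1.01), Ifit1 (0.14), Krt19 (0.29) and Cdkn1c (-1.17), while those of Chia1, Pga5, Wfdc2, Cldn7, Ccn2, Msln, Atp4a and Atp4b were kept.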

How the data were processed

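Affymetrix gene arrays were hybridised with RNA of 13 mouse samples, and 6 of the arrays entered this comparison. The authors deposited log2 intensities for 35556 probesets, made with RMA and Affymetrix Power Tools per the submitters' processing notes; the notes used here give no version. Because RMA forces a common distribution on the arrays, a shift of most genes at once is largely removed from the values. Precision is limited by the 3 arrays per group.

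Of the probesets 21218 had 1 gene symbol in the platform annotation, 1881 had several and 12457 had none; 21185 of the first were matched to RefSeq (GRCm38.p6). Where several single-symbol probesets stood for a gene, the one with the highest mean of the 6 arrays was kept, which left 18820 genes. A mean per group was fitted in limma 3.58.1 (lmFit, eBayes; R 4.3.3), without a block, and p-values were adjusted by Benjamini-Hochberg over all genes. The fit was tested on simulated data. The members, the 31 gene lists (527 entries, 476 measured) and the tests were chosen with earlier results of these data known, and some genes stand in more than 1 list.

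Named genes were Tnfrsf19, Chia1, Pga5, Wfdc2, Cldn7, the 15 largest called differences in each direction, and from each list up to 4 called genes by size, or the 2 with the highest mean where none was called. All other genes named, such as Pgc, Cblif, Bhlha15, Lgr5, Axin2, Mki67, Muc6, Car2, Slc9a4, Ccn1, Cdh1, the sex-linked genes and those of the closing section, were chosen after their values were seen. Equal letters do not pair the groups: across genes, the deviations of chief and EGFNWR arrays of the same letter correlated at -0.0949, -0.0481 and 0.0128. Alternatives left out each array, or changed the normalization, filter, variance model, fold minimum, features tested or reference. Promoter sequences came from RefSeq.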

Additional observations from a re-analysis of the deposited data

How the results depend on the processing

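Of 95 named genes, 77 kept their direction and their side of the call under every alternative except another fold minimum and whole glands as the reference. The 77 include Esam, whose main difference of 0.00 had no direction to keep. Its difference ranged from -0.58 to 0.33 over these alternatives. The count of 487 higher genes ranged from 443 (without chief array c) to 565 (without chief array a) when each array was left out, and that of 288 lower genes from 247 (without EGFNWR array b) to 344 (without chief array b). With the letter as a replicate block, 487 genes were higher and 291 lower. Median centring gave 594 higher and 249 lower genes. A minimum of 1 on the log2 scale gave 2083 and 857 genes, and a minimum of 3 gave 170 and 121. Testing every probeset gave 603 higher and 538 lower calls, of which 496 and 312 were probesets with a single symbol. Signs changed for Gsta3 (-0.12), Avil (-0.26), Dusp6 (0.20), Tnfrsf19 (2.04), Igkc (0.46) and Atf3 (1.50) with whole glands as the reference. They also changed for Dusp6 without chief array c (range without each array -0.67 to 0.0050), for Slc4a1 without chief array b (range -0.18 to 0.0033), under repeated quantile normalization (0.16) and after centring (0.055), and for Alas2 under quantile normalization (0.010); the cause was not tested. With no detection call, the size of differences that start or end below an array median is open, which touches 166 of the higher and 147 of the lower genes, and levels near 13 leave little room above.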

Other observations

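Some members of several gene families were called higher in the organoids, where 2.59% of all genes were. The families were picked after their values were seen, and Anxa1, Anxa3 and Oasl2 among them are described above. Of 12 annexin genes 5 were higher and 0 lower, with a median difference of 1.38, among them Anxa8, from 3.96, 4.27 and 3.99 on the chief arrays to 8.46, 9.17 and 7.95 (difference 4.45), and Anxa2 (3.67), both calcium-dependent membrane-binding proteins. Of 19 tetraspanins 5 were higher, with a family median of 0.86, led by Tspan2 (4.07). Of 24 clade B serpins 4 were higher, among them Serpinb9 (4.11), an inhibitor of granzyme B, but the family median was -0.18. Of 11 oligoadenylate synthetase genes 6 were higher, with a median of 2.67, such as Oas2 (4.02), from 5.47, 6.26 and 5.00 to 9.54, 9.59 and 9.65, with the 2 gland arrays at 7.19 and 10.07.

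Single genes of oxidant and prostaglandin production were called higher too. Duox2, a dual oxidase that releases hydrogen peroxide, had 4.43, 4.23 and 4.58 on the chief arrays and 8.50, 8.87 and 9.37 on the EGFNWR arrays (difference 4.50). Its maturation factor Duoxa2 differed by 4.62. The 2 gland arrays differed widely, with 5.40 and 8.47 of Duox2 and 5.49 and 8.76 of Duoxa2. Ptgs2, the inducible cyclooxygenase, had 4.49, 5.41 and 5.62 against 10.16, 10.19 and 10.17 (difference 5.00), and Ptges, a prostaglandin E synthase, differed by 3.72. These were 2 of 8 measured genes of prostaglandin synthesis, whose median difference was -0.10. Fn1, which encodes the matrix protein fibronectin, had 5.95, 6.58 and 5.41 against 11.31, 11.27 and 10.21 (difference 4.95).

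Further lower genes, chosen after their values were seen, were Tnni3, cardiac troponin I (-5.47), Cox7a1, a cytochrome oxidase subunit (-5.62), and Fabp3, a fatty acid carrier (-5.62). Fabp3 had 10.08, 7.85 and 11.14 on the chief arrays, 11.38 and 11.32 on the parietal arrays and 4.00, 4.12 and 4.10 in the organoids, and all 3 genes were lowest on chief array b, where parietal markers were lowest. Igf1, a growth factor, had 9.46, 9.01 and 9.37 against 4.28, 4.17 and 4.30 (difference -5.03).

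The Paneth cell genes Lyz1 and Defa24 varied among the organoid arrays and were highest on EGFNWR array c. On ER arrays a, b and c Lyz1 had 6.93, 8.51 and 4.75, and Defa24 had 5.45, 6.97 and 3.15. Lyz1 had 6.46, 4.73 and 10.40 on EGFNWR arrays a, b and c, and Defa24 had 5.02, 3.09 and 9.82, against at most 5.10 and 3.38 on the chief arrays. Neither was called.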
